A study of Arabidopsis thaliana with 2 samples.

Results

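The plastid ribosome of Arabidopsis thaliana is built from proteins of both genomes, and 60 genes that encode them, of 33565 in the deposited table, are described here. The genes were listed by identity, with no threshold on measured values, although earlier results of these data were known. A further 7 nuclear genes for such proteins are given only beside them. It holds 26 plastid-encoded genes, of which 15 encode proteins of the small subunit and 11 proteins of the large subunit. It also holds 34 nuclear-encoded genes, of which 12 belong to the small subunit and 22 to the large subunit. Their transcript levels were compared between wild type and wn1, a mutant that the labels call whitening, as levels per genome and per subunit.

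The plastid ribosome resembles that of bacteria. Its small subunit holds 16S ribosomal RNA and reads the messenger RNA, and its large subunit holds 23S ribosomal RNA and joins amino acids. Nuclear-encoded proteins are made in the cytosol and imported into the plastid, where they are assembled with plastid-encoded proteins on the ribosomal RNA. In leaves this ribosome makes the plastid-encoded subunits of the photosystems, of the ATP synthase and of Rubisco.

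Both groups were shoots of 7-day-old seedlings in the Col-0 background, grown on solid medium at 22 °C in a daily cycle of 16 h light and 8 h dark, and cotyledon is also named as the tissue. One group carried the wild-type genotype and the other the wn1 mutation, whose gene and allele the labels do not name, and the number of seedlings pooled is not stated. Each genotype had 1 library and no replicate, so differences are described without a test or p-value. Levels are the FPKM that the authors deposited, a count of fragments corrected for transcript length and sequencing depth.

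The table gives no depth, but low FPKM values fell on steps of whole fragments, from which the depth was estimated as 15300000 fragments in wild type and 18600000 fragments in wn1. At that depth an FPKM of 200 on a gene of 1000 bases stands for an estimated 2403 wild-type and 2926 wn1 fragments. All 6 shoot markers were abundant, at 1902 FPKM or more in wild type and 1604 or more in wn1. The 7 root markers summed to 1663 FPKM in wild type and 2318 FPKM in wn1, nearly all of it from PYK10, a beta-glucosidase of roots and hypocotyls, at 1521 and 2225 FPKM. Of the 7, 5 had a lower FPKM in wn1, and the median log2 difference of FPKM + 1, wn1 minus wild type, was -0.64. The summed shoot markers were 36910 and 26064 FPKM, and the part of either marker list in the differences reported here was not tested. In whole shoots, fewer cells of a type, fewer plastids and less RNA per plastid cannot be told apart.

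The plastid-encoded and the nuclear-encoded genes of the same ribosome differed in how far wn1 lay from wild type. Differences are log2 differences of FPKM + 1, wn1 minus wild type, and genes were counted as measured from a mean of 1 FPKM. Of the 26 plastid-encoded genes, 23 were measured, and 17 of these were at least 2-fold higher in wn1 while 1 was at least 2-fold lower. Of the 34 nuclear-encoded genes, all were measured and none passed 2-fold in either direction. Over all 18788 measured genes, 3.67% were higher by 2-fold or more in wn1 and 3.65% were lower by as much, with a median difference of 0.03. The median difference was 1.67 for the measured plastid-encoded genes and 1.44 when the 3 genes listed at 0 were kept. It was 0.19 for the nuclear-encoded genes, a value that turned to -0.82 when each library was divided by its own FPKM total. That division moved the median of all measured genes to -0.86 as well, and a single plastid transfer RNA gene (ATCG00010) made up 54.1% of the FPKM total of wn1 and was listed at 0 in wild type. Relative to that median, the plastid-encoded genes stood at 1.54 and the nuclear-encoded genes at 0.04, against 1.64 and 0.16 before the division. A division alone moves all log2 ratios equally. The 1 was added to FPKM after it, so genes of low FPKM moved less than abundant genes, and the standings changed for that reason. Under that division 6 plastid-encoded genes were at least 2-fold higher and 3 lower, and 7 nuclear-encoded genes were at least 2-fold lower. The counts for all 18788 measured genes were then 6956 lower and 100 higher by as much, so the nuclear-encoded count is not particular to this ribosome. When the totals were taken without organelle genes, the plastid-encoded median was 1.67 and the nuclear-encoded median 0.19. The plastid-encoded counts were then 17 higher and 1 lower, and no nuclear-encoded gene passed 2-fold. Elsewhere, FPKM totals include organelle genes unless stated.

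**Figure D1:**
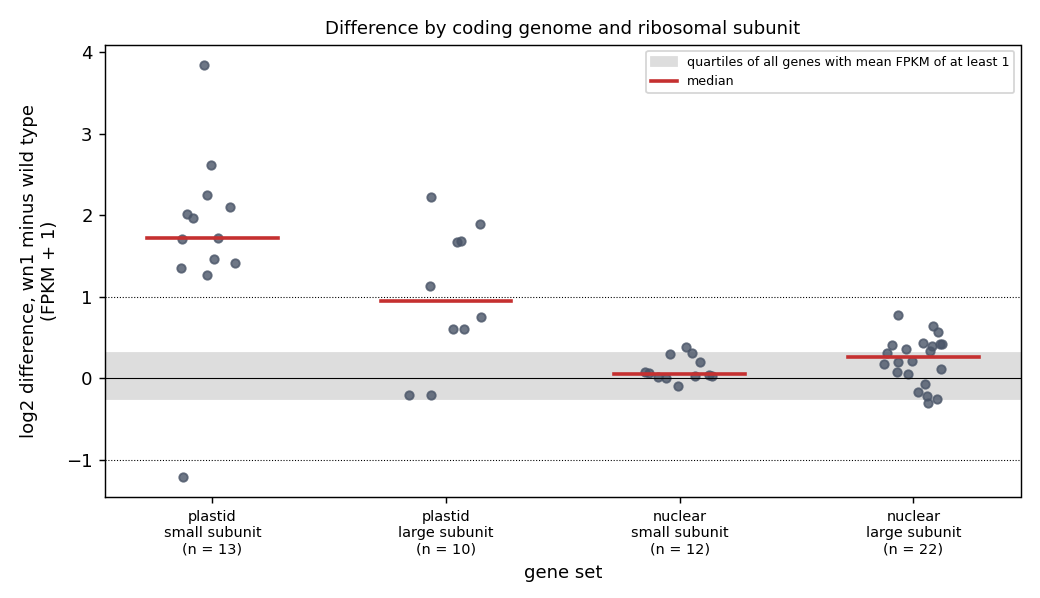
Log2 difference of FPKM + 1 between wn1 and wild type for each measured gene, grouped by genome and subunit. Each point is 1 gene, red lines are medians, the grey band spans the quartiles of all measured genes and dotted lines mark 2-fold. Of the 23 plastid-encoded ribosomal protein genes, 17 lie above the upper dotted line, and all 34 nuclear-encoded genes lie between the dotted lines (without division by the FPKM totals, which shifts all groups down).

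Plastid-encoded genes of the small subunit were, with 1 exception, higher in wn1. Of the 15 genes, 13 were measured, 12 of them at least 2-fold higher, while 1 was lower by as much, with a median difference of 1.72. RPS12 carries a protein that helps to check the match of codon and anticodon, and its transcripts are joined in trans from separate pieces. The rows RPS12B (ATCG01230) and RPS12C (ATCG00905), copies in the inverted repeat, had 111 and 103 FPKM in wild type and 453 and 444 FPKM in wn1, the top levels of the small subunit set in both libraries. The row of the other piece, RPS12A (ATCG00065), was listed at 0 in both. RPS7, which in bacteria binds the 16S ribosomal RNA directly and starts assembly of the head of the small subunit, also has a copy in each repeat. RPS7.1 (ATCG00900) and RPS7.2 (ATCG01240) had 58.4 and 58.7 FPKM in wild type, and each had 194 FPKM in wn1. Copies share their reads, so such a pair is 1 measurement and not 2.

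RPS3 (ATCG00800) and RPS4 (ATCG00380) lie at the entry of the messenger RNA channel in the bacterial ribosome. RPS3 had 60.5 FPKM in wild type and 240 FPKM in wn1. RPS4 was much less abundant, with 3.52 and 11.0 FPKM, yet its difference of 1.41 was also past 2-fold. For RPS3 the estimated 409 and 1976 fragments gave an FPKM ratio of 3.96, with a 95% counting interval of 3.56 to 4.42. Such intervals are exact Clopper-Pearson intervals on the estimated fragments and cover counting error only, not the spread between plants.

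RPS2 (ATCG00160), RPS18 (ATCG00650) and RPS19 (ATCG00820) were also higher in wn1. RPS2 had 3.43 FPKM in wild type and 10.3 FPKM in wn1, and RPS18 had 6.88 and 20.8 FPKM. RPS19, a protein of the head of the small subunit, had 41.2 FPKM in wild type and 101 FPKM in wn1. All 3 were past 2-fold, with differences of 1.35, 1.47 and 1.27. The counting intervals of their FPKM ratios began below 2-fold, at 1.93, 1.5 and 1.75, as did that of RPS4 at 1.91. RPS15 (ATCG01120) binds the 16S ribosomal RNA early in bacterial assembly and had the widest difference of the set, 3.84, from 1.06 FPKM in wild type and 28.5 FPKM in wn1. That value rests on an estimated 1 fragment in wild type and 33 in wn1, and the counting interval of its FPKM ratio of 26.8 ran from 4.72 to 1147. RPS16 (ATCG00050) was listed at 0 in both libraries.

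RPS14 (ATCG00330) was the exception. It encodes a protein of the head of the small subunit, and it had 34.7 FPKM in wild type and 14.4 FPKM in wn1, a difference of -1.21. The estimated 50 fragments in wild type and 25 in wn1 gave an FPKM ratio of 0.417, with a counting interval of 0.247 to 0.687. RPS14 is transcribed together with PSAA and PSAB, which encode the reaction centre proteins of photosystem I. PSAB, next to it, had 10.2 FPKM in wild type and 6.01 FPKM in wn1, and PSAA had 6.76 and 7.37 FPKM. Their differences were -0.68 and 0.11.

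**Figure D2:**
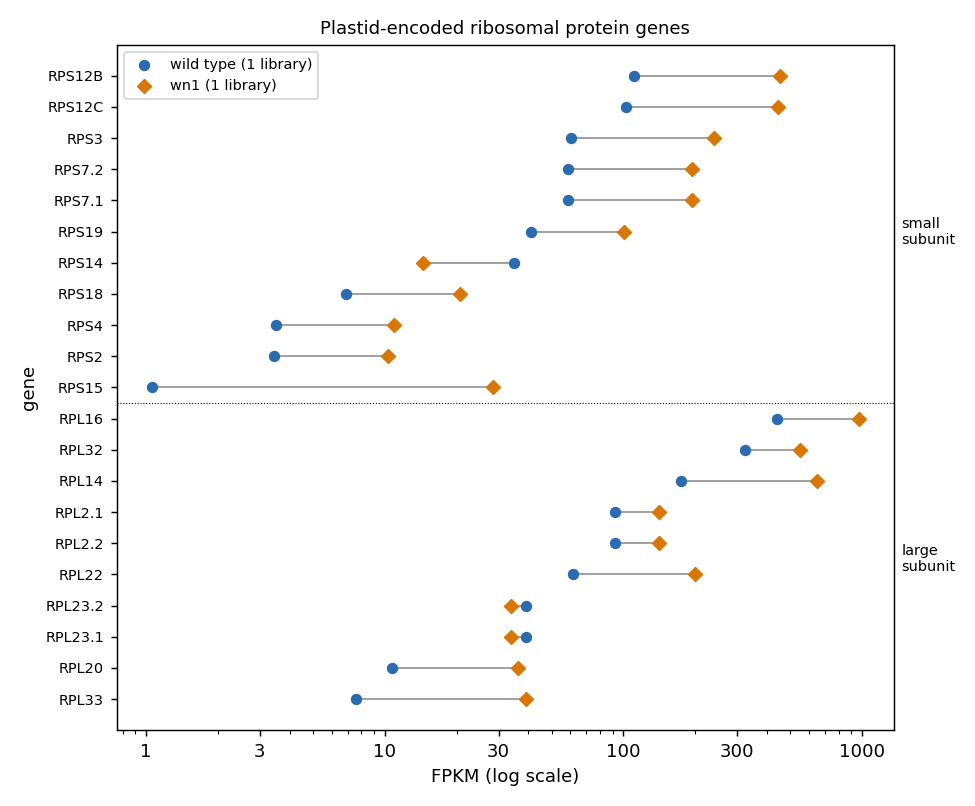
FPKM of 21 plastid-encoded ribosomal protein genes in wild type (circles) and wn1 (diamonds), 1 library each, on a logarithmic axis, with small and large subunit genes in separate blocks. Grey lines join both values of a gene, and genes listed at 0 in both libraries are not drawn. The diamonds lie to the right of the circles except for RPS14 and both copies of RPL23, and after division by the FPKM totals RPL32 and both copies of RPL2 join these exceptions.

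Plastid-encoded genes of the large subunit were also mostly higher in wn1, but fewer passed 2-fold. Of the 11 genes, 10 were measured, 5 were at least 2-fold higher and 5 lay within 2-fold, with a median difference of 0.94. RPL16 (ATCG00790), which in bacteria sits near the site where the incoming transfer RNA binds, had the top level of all plastid-encoded members in both libraries, with 440.2 FPKM in wild type and 964 FPKM in wn1. RPL14 (ATCG00780) lies at the contact with the small subunit and had 174 and 649 FPKM. RPL22 (ATCG00810) lines the exit tunnel for the new protein, and it had 61.4 FPKM in wild type and 200 FPKM in wn1. All 3 lie in the same cluster of genes, and their differences were 1.13, 1.90 and 1.68.

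RPL20 (ATCG00660) and RPL33 (ATCG00640) lie near each other in another region of the plastid genome. RPL20, an early assembly protein in bacteria, had 10.7 FPKM in wild type and 36.3 FPKM in wn1. RPL33, a small protein, had 7.57 and 38.9 FPKM, which stand for an estimated 3 and 16 fragments. The FPKM ratio of RPL33 was 5.15, with a counting interval of 1.43 to 26.8. The interval shows how little depth lies behind that ratio.

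The other large subunit genes lay within 2-fold, and after division by the FPKM totals all of them with a level above 0, with RPS14, were the 6 plastid-encoded genes below 0. RPL2, whose bacterial counterpart lies at the peptidyl transferase centre, has a copy in each repeat. RPL2.1 (ATCG00830) and RPL2.2 (ATCG01310) had 92.5 and 92.2 FPKM in wild type and 141 FPKM each in wn1, a difference of 0.60 and 0.61. The counting interval of the RPL2.1 ratio of 1.52 ran from 1.40 to 1.66, below 2-fold throughout. RPL23 lies at the mouth of the exit tunnel, and its copies RPL23.1 (ATCG00840) and RPL23.2 (ATCG01300) each had 39.1 FPKM in wild type and 33.7 FPKM in wn1. Each copy stood for an estimated 46 fragments in either library, and the interval of the FPKM ratio of 0.861, from 0.549 to 1.30, includes 1. RPL32 (ATCG01020), a short gene of 159 coding bases, had 324 FPKM in wild type and 546 FPKM in wn1, the next highest level after RPL16 in wild type. RPL36 (ATCG00760), at 114 coding bases, was listed at 0 in both libraries.

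The small subunit median exceeded the large subunit median by 0.77 among the plastid-encoded genes. The excess was 0.31 when each repeat pair was counted once and 0.32 without genes under 300 coding bases. It was 0.95 with no filter on low values and 0.96 without members under 20 wild-type fragments, so its size depends on which rows are kept. Among the genes with a coding length, 8 were under 300 bases and 2 of these were listed at 0, against none of the 15 longer ones.

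Along the first 7 genes of the main gene cluster the difference changed with position. Plants keep a row of plastid ribosomal protein genes that corresponds to joined operons of bacteria, read here from RPL23 through RPL2, RPS19, RPL22, RPS3 and RPL16 to RPL14. At its start, RPL23.1 and RPL2.1 differed by -0.21 and 0.60. Further along, RPS19, RPL22 and RPS3 differed by 1.27, 1.68 and 1.97, and RPL16 and RPL14 by 1.13 and 1.90. Of the 6 steps between neighbouring genes, 5 went up, and the step from RPS3 to RPL16 went down. RPOA, a polymerase core subunit gene farther downstream and no ribosomal protein, had 9.53 FPKM in wild type and 57.3 FPKM in wn1, a difference of 2.47.

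As a description over these 7 genes, Spearman's rho between place in the cluster and difference was 0.714 and Pearson's r was 0.797. Without RPL23.1 and RPL2.1, which lie in the repeat, rho was 0.20 and r was 0.30 over 5 genes. Within this stretch the relation thus rests on RPL23.1 and RPL2.1. Measured cluster genes beyond RPL14 were left out of these coefficients, so they do not describe the whole cluster. The genes share transcripts and libraries, so they are not independent points. The wild-type level itself also had a rho of 0.714 with place in the cluster. The whole cluster, with 9 measured genes, had a median difference of 1.68, and the 14 measured plastid-encoded genes outside it had a median of 1.57. Those outside include RPL2.2 and RPL23.2, the other repeat copies of cluster genes, with differences of 0.61 and -0.21. The same signals thus enter both medians, and the gap between them cannot be read as a difference of the cluster.

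**Figure D3:**
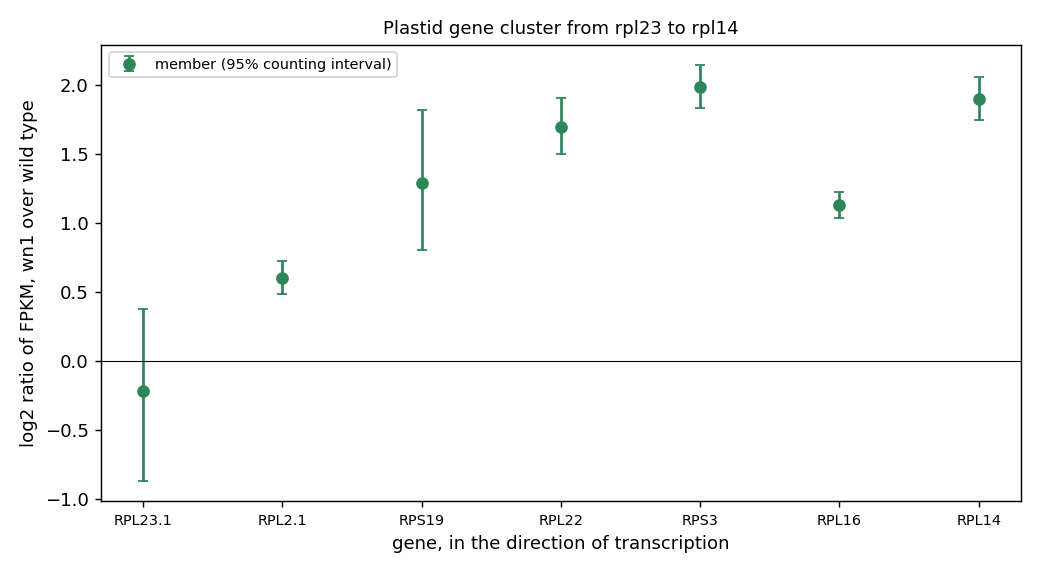
Log2 ratio of FPKM (wn1 over wild type, with no pseudocount) for the first 7 genes of the cluster in the direction of transcription, with 95% counting intervals. The ratio runs from -0.22 at RPL23.1 to 1.99 at RPS3, with a lower value at RPL16, and division by the FPKM totals, which lowers all genes, puts RPL2.1 below 0 as well.

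Genes that neighbour other plastid-encoded members varied in the size of their difference, and of those that follow only PSAJ was lower in wn1. CLPP1, a protease subunit gene transcribed with RPL20 and a piece of RPS12, had 23.9 FPKM in wild type and 142 FPKM in wn1. RPOC2, a polymerase subunit gene beside RPS2, had 1.48 and 6.42 FPKM, and ATPI, an ATP synthase subunit gene on the other side of RPS2, had 11.6 and 17.6 FPKM. YCF1.2, which encodes a large protein of the inner envelope and lies beside RPS15, had 9.15 and 115 FPKM. NDHH, also beside RPS15, had 2.50 FPKM in wild type and 31.4 FPKM in wn1, and NDHF, beside RPL32, had 0.87 and 6.35 FPKM. NDHB.1 and NDHB.2, repeat copies beside RPS7 that encode a subunit of the NDH complex, each had 2.02 and 2.81 FPKM. PSAJ, a photosystem I subunit gene beside RPL33 that was chosen after its values were seen, had 732 FPKM in wild type and 174 FPKM in wn1, a difference of -2.07. Like PSAJ, NDHH and NDHF were outside the list of neighbours set for naming. The strand setting is not stated in the sources used here, so reads of overlapping or antisense plastid genes cannot be separated.

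Other plastid-encoded protein-coding genes were more mixed. Of 62 such genes 48 were measured, of which 17 were higher by 2-fold or more, 11 were lower by as much and 20 lay within 2-fold, with a median difference of 0.34. Against this, 17 of the 23 measured plastid-encoded ribosomal protein genes were higher and 1 was lower. With 1 library per genotype the contrast between these groups of genes was described and not tested.

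The nuclear-encoded members formed a narrow and abundant group. In wild type they ranged from 190.4 FPKM for RPL34 (AT1G29070) to 720.0 FPKM for RPL35 (AT2G24090), a span of 3.78-fold, and in wn1 from 201 FPKM for RPL34 to 807 FPKM for RPL29 (AT5G65220), a span of 4.02-fold. Their lowest member lay at the 96.2 percentile of all measured genes in wild type and at the 96.4 percentile in wn1. The plastid-encoded members spanned 414-fold in wild type and 93.8-fold in wn1. The standard deviation of log2 FPKM over genes was 0.51 in wild type and 0.52 in wn1 for the nuclear-encoded members, against 2.15 and 1.99 for the plastid-encoded members with a level above 0. Across the 34 nuclear-encoded genes the levels in both libraries had a Pearson's r of 0.876 on the log2 scale, and across 23 plastid-encoded genes it was 0.842, and genes are not independent replicates.

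Of the 34 nuclear-encoded genes, 28 had a higher FPKM in wn1 and 6 a lower one, although all 34 lay below 0 once each library was divided by its FPKM total, where 18 of 34 remained above the median of all measured genes. Before that division 25 of 34 were above the median of all measured genes. The change from 25 to 18 comes from adding 1 to FPKM after the division, since a division alone moves all log2 ratios equally. In the large subunit the difference was 0.77 for RPL29, which sits beside RPL23 at the tunnel mouth, from 472 FPKM in wild type to 807 FPKM in wn1. RPL13 (AT1G78630), an early assembly protein, had 498 and 775 FPKM, and RPL9 (AT3G44890) had 234 and 345 FPKM. These were the widest differences among the nuclear-encoded genes, and each was below 2-fold.

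Several other nuclear-encoded genes of the large subunit, grouped here by their values and not by function, showed smaller differences. RPL4 (AT1G07320), which lines the exit tunnel, had 363 FPKM in wild type and 478 FPKM in wn1. RPL1 (AT3G63490), of the stalk that guides the leaving transfer RNA, had 382 and 517 FPKM. RPL5 (AT4G01310) and RPL18 (AT1G48350), which bind 5S ribosomal RNA, had 431 and 272 FPKM in wild type and 543 and 364 FPKM in wn1. RPL3 (AT2G43030) and RPL6 (AT1G05190) had 436 and 593 FPKM in wild type and 499 and 791 FPKM in wn1. RPL15 (AT3G25920) had 448 and 602 FPKM, RPL21 (AT1G35680) had 309 and 396 FPKM, and RPL27 (AT5G40950) had 331 and 410 FPKM. All of these had a difference between 0.19 and 0.44, above the median of all measured genes (0.03), and all were below 0 after division by the FPKM totals.

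Of 4 genes for the factor-binding stalk and its base, 3 had a lower FPKM in wn1, and the direction of the other, RPL12-C, turned below 0 after division by the FPKM totals. Before that division 52.9% of all measured genes lay above 0, and RPL28 and RPL35, outside the stalk, also had a lower FPKM in wn1. RPL10 (AT5G13510), the base of the stalk, had 507 FPKM in wild type and 483 FPKM in wn1. RPL11 (AT1G32990), beside it, had 265 and 227 FPKM. The stalk protein RPL12 has several nuclear genes, and RPL12-A (AT3G27830) had 705 and 589 FPKM whereas RPL12-C (AT3G27850) had 423 and 440.4 FPKM. These near-identical copies may share reads. RPL28 (AT2G33450) had the lowest difference of the nuclear-encoded set, -0.30, from 556 FPKM in wild type and 451 FPKM in wn1, and RPL35 had 720.0 and 641 FPKM. The remaining large subunit genes, RPL17 (AT3G54210), RPL24 (AT5G54600), RPL31 (AT1G75350) and RPL34, differed by 0.08 to 0.21.

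**Figure D4:**
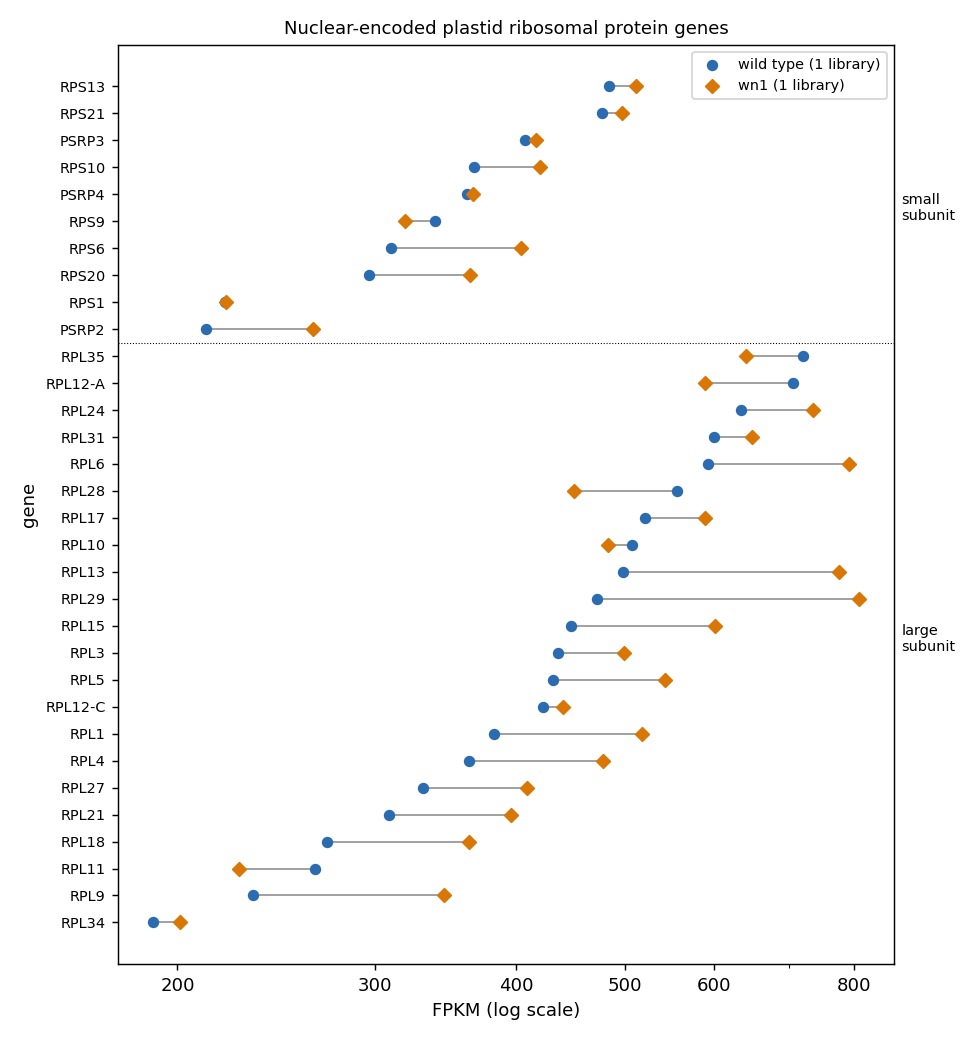
FPKM of 32 nuclear-encoded plastid ribosomal protein genes in wild type (circles) and wn1 (diamonds), 1 library each, on a logarithmic axis, with small and large subunit genes in separate blocks. Grey lines join both values of a gene. All values lie between 190.4 and 807 FPKM, and the diamond lies left of the circle for 6 genes, and for all 32 genes drawn after division by the FPKM totals.

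Nuclear-encoded genes of the small subunit lay close to 0. Their differences ran from -0.09 for RPS9 (AT1G74970) to 0.38 for RPS6 (AT1G64510), with a median of 0.05, against a median of 0.26 over a range of -0.30 to 0.77 for the large subunit. RPS6 had 310 FPKM in wild type and 404 FPKM in wn1. RPS1 (AT5G30510), which binds messenger RNA, had 220.4 and 221 FPKM. RPS20 (AT3G15190) had 296 and 364 FPKM, and RPS10 (AT3G13120) had 367 and 420.4 FPKM. RPS13 (AT5G14320) and RPS21 (AT3G27160) had 484 and 477 FPKM in wild type and 511 and 497 FPKM in wn1, and RPS9 had 339 and 318 FPKM. PSRP2 (AT3G52150), PSRP3 (AT1G68590) and PSRP4 (AT2G38140) carry the name plastid-specific ribosomal proteins. Their levels were 212, 408 and 362 FPKM in wild type and 264, 417 and 366 FPKM in wn1. The order of subunits was thus opposite in the genomes, with the small subunit median 0.21 below the large one in the nuclear-encoded set and above it in the plastid-encoded set, a description of these libraries that was not tested.

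The balance of transcripts between the genomes differed between the libraries. The plastid-encoded members summed to 1847 FPKM in wild type and 4945 FPKM in wn1, and the nuclear-encoded members to 14570 and 16544 FPKM. The ratio of plastid to nuclear sums was 0.127 in wild type and 0.299 in wn1, and this ratio does not depend on how the libraries are scaled to each other. It does depend on which rows are kept. With repeat copies counted once it was 0.106 in wild type and 0.250 in wn1. Without genes under 300 coding bases it was 0.0958 in wild type and 0.252 in wn1. The median plastid-encoded member had 57.2 FPKM in wild type and 141 FPKM in wn1, and the median nuclear-encoded member had 427 and 481 FPKM. The labels do not state whether polyadenylated RNA was selected, and plastid messenger RNA mostly lacks stable poly(A) tails, so the ratio within a library need not be that of messages in the cell. The differences of plastid-encoded genes between the libraries carry the same limit. Whether plastid messages were captured equally in both libraries was not tested.

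The ribosomal RNA rows had the opposite direction to the plastid-encoded proteins. The copies of 16S ribosomal RNA had 391 and 392 FPKM in wild type and 50.7 FPKM each in wn1, a difference of -2.92 and -2.93. The copies of 23S ribosomal RNA had 594 and 593 FPKM in wild type and 65.8 FPKM each in wn1, a difference of -3.15 for both. The 4 rows of the shorter plastid ribosomal RNAs were listed at 0 in both libraries. The labels do not state how far ribosomal RNA was removed in making the libraries, so these levels are what remained in the libraries.

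Nuclear genes for factors that act with the plastid ribosome mostly lay within 2-fold, as did most of all measured genes. Of these, 3.67% were higher and 3.65% lower by 2-fold or more, and 52.9% had a difference above 0. Of 13 plastid translation factors, 12 had a difference above 0 and 1 was at least 2-fold higher, with a median of 0.37. SVR9L and SVR9, both initiation factors of the IF3 type, had 27.8 and 54.2 FPKM in wild type and 59.8 and 96.7 FPKM in wn1. RABE1b, the elongation factor that delivers transfer RNA, was the most abundant, with 1113 and 1288 FPKM. Of 18 genes for assembly and ribosomal RNA processing, 13 had a difference above 0 and 2 were at least 2-fold higher, with a median of 0.46. These were RNR1, an exoribonuclease that trims ribosomal RNA, with 14.5 and 33.0 FPKM, and RBF1, a small subunit assembly factor, with 32.7 and 70.7 FPKM. PNP1, another exoribonuclease, had 20.7 and 40.1 FPKM, and CSP41B, an RNA-binding protein and the most abundant of the list, had 949 and 698 FPKM. Of the 7 further nuclear genes for plastid ribosomal proteins, 6 were measured and none passed 2-fold, with a median of 0.24, and PSRP5, the most abundant, had 602 and 933 FPKM. These directions hold before division by the FPKM totals, which moved the median of all measured genes from 0.03 to -0.86.

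**Figure D5:**
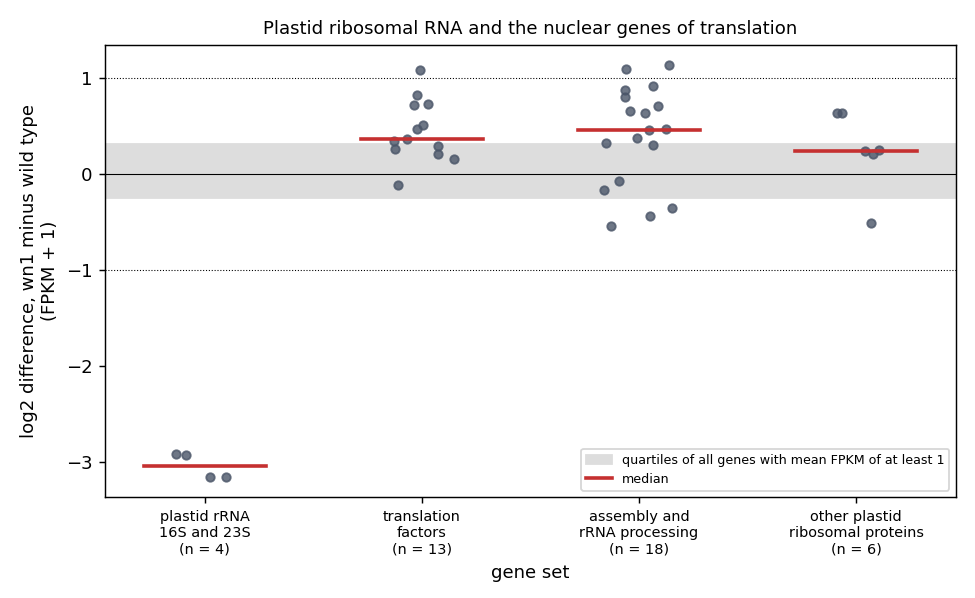
Log2 difference of FPKM + 1 between wn1 and wild type for plastid ribosomal RNA rows and for nuclear genes of translation, assembly and further plastid ribosomal proteins. Each point is 1 gene, red lines are medians, the grey band spans the quartiles of all measured genes and dotted lines mark 2-fold. The 4 ribosomal RNA rows lie near -3.15 and -2.92, and the medians of the nuclear lists are 0.37, 0.46 and 0.24 before division by the FPKM totals.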

How the data were processed

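The authors deposited FPKM per annotated gene for 1 wild-type and 1 wn1 library. Bowtie and TAIR10 are named, without versions, per the submitters' processing notes. The counter, filters and division of multi-mapped reads are not stated in the sources used here. Another 2 per-sample columns carried names of other material and were left out.

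Log2 differences of FPKM with a pseudocount of 1, wn1 minus wild type, were taken for genes averaging 1 FPKM or more. Genes were counted at 2-fold. Members and lists were chosen with earlier results of these data known. Every member may be named. From each list the 3 genes with the largest absolute difference and the most abundant gene may be named, as may ribosomal RNA rows, markers and cluster neighbours, and fewer are named here. The neighbours NDHH, NDHF and PSAJ were named in addition to those set for naming. Of the members, 4 are not reported here and are still counted in their sets. Names and coding lengths came from RefSeq for TAIR10.1, with the 34 nuclear members matched by locus tag and plastid members by symbol, and 57 members had a coding length. That build differs from the table's, so no coordinates or sequences are printed.

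Depth was estimated from 217 wild-type and 203 wn1 values of genes with up to 10 fragments. Of these, 81.1% and 85.2% lay within 2% of a whole number under an effective length with a fragment mean of 216 bases. Fragments are not given under 200 bases. Intervals are at 95%. The steps were tested on simulated data. Values were recomputed with no filter, a filter at a mean of 5 FPKM, a pseudocount of 0.1, scaling by FPKM totals (with or without organelle genes), centring, a 4-fold threshold, and leaving out members listed at 0, repeat copies or short genes. Leaving out members under 20 wild-type fragments was chosen after seeing the data. Python 3.11.15, pandas 2.3.3, numpy 2.4.6, scipy 1.17.1 and matplotlib 3.10.9 were used.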

Additional observations from a re-analysis of the deposited data

How the results depend on the processing

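No paired analysis was possible because each genotype had 1 library. Over the medians, counts and ratios of the plastid-encoded and nuclear-encoded genes, 99 of the recomputed values kept their direction and stayed within 1.5-fold, 6 moved and 1 reversed. Many of the 99 could not change, because a setting left out no measured member of the set or because scaling cancels in a ratio of sums. The tally therefore does not measure robustness. The excess of the small over the large subunit median was counted as within 1.5-fold although it fell from 0.77 to 0.31 with repeat copies counted once. Dividing each library by its FPKM total gave a plastid-encoded median of 0.69, a nuclear-encoded median of -0.82 in place of 0.19, 6 plastid-encoded genes at least 2-fold higher and 3 lower, and 7 nuclear-encoded genes at least 2-fold lower. Under that division 100 of all measured genes were at least 2-fold higher and 6956 lower, against 690 and 685 as reported. Totals without organelle genes gave a plastid-encoded median of 1.67 and a nuclear-encoded median of 0.19. They left the 2-fold counts of both sets as reported. At 4-fold, 6 plastid-encoded genes were higher and 0 lower, against 72 higher and 128 lower of all 18788 measured genes. The 6 include both RPS12 copies, which are 1 measurement, and RPS15 and RPL33, with an estimated 1 and 3 wild-type fragments. Leaving out members with under 20 wild-type fragments, an alternative chosen after seeing the data, left 14 plastid-encoded genes higher and 1 lower with a median of 1.54. For single members the division by totals moved 57 of 60 and a pseudocount of 0.1 moved only RPS15, to 4.62, and no member past 2-fold changed sign. Division by totals without organelle genes moved none of the 60. With 1 library per genotype the spread between plants is unknown, FPKM of short genes depends on the effective length used by the authors, and repeat copies count 1 signal as 2 rows.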
